A study of Mus musculus with 4 samples.

Results

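Insulin signalling and glucose uptake were followed through 9 genes in RNA of mouse mammary fat pad (MFP). The 9 genes were taken by name from the 55487 genes counted, each matched 1 entry, and all 9 passed the filter on low counts that left 22485 genes for testing. They encode the insulin receptor (Insr), its adaptors (Irs1, Irs2), a phosphatidylinositol 3-kinase (PI3K) subunit (Pik3r1), the kinase Akt2, the vesicle regulator Tbc1d4, the glucose transporters GLUT4 (Slc2a4) and GLUT1 (Slc2a1), and the transcription factor Foxo1. Whole MFP of female C57BL/6J mice was sequenced at 14 months (aged, 2 libraries) and at 8 weeks (young, 2 libraries). The paper names strain J for its mice in general and C57BL/6NCrl for its fat pad injections, so the substrain is not certain. The animals carried no transgene or treatment that the labels name, and the sources used here do not say whether a library holds 1 animal or several. P-values therefore measure the spread between these libraries. The tissue was cut up and lysed whole, so each value mixes adipocytes with every other cell type, and fewer cells of a type cannot be told apart from less RNA per cell.

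Insulin binds its receptor tyrosine kinase, which phosphorylates the IRS proteins. These recruit PI3K, whose lipid product brings AKT to the membrane, where AKT is activated. In fat and muscle cells, AKT2 phosphorylates TBC1D4 (AS160) and so releases the vesicles that carry GLUT4 to the cell surface, the step that lets insulin drive glucose into these tissues. GLUT1 takes up glucose without insulin in most cell types. AKT also phosphorylates FOXO1 and keeps it out of the nucleus, and FOXO1 is a known activator of Irs2 and Insr when insulin is low.

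Library totals ran from 68803304 to 98402403 counts, and 3 counts correspond to at most 0.0407 CPM (counts scaled to the TMM-normalized library size), a floor that covers counting error only. The tissue label was checked against 12 adipocyte markers, all of which were counted in every library, with a summed level from 12620 to 18030 CPM. Libraries also differed in other cell types. The 16 skeletal muscle markers summed to 49180 and 79050 CPM in aged replicates 1 and 2 and to 12590 and 17460 CPM in young replicates 1 and 2, with all 16 genes without overlap between the ages and none at 0. Markers of lymphocytes, which fill the lymph node of the fat pad, summed to 761.2 CPM in young replicate 1 and to 4.675 CPM in young replicate 2, against 7.607 and 69.48 CPM in aged replicates 1 and 2. For genes whose value changed most without young replicate 1, that value is given too.

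The question was whether RNA of the insulin pathway differs between aged and young MFP. With edgeR's quasi-likelihood test and an adjusted p of 0.05, calls were made for 0 of the 9 genes and for 0% of all 22485 genes tested. At an unadjusted p under 0.05 there were 0 of the 9 genes, against 10.5% of all genes. DESeq2 called 0 of the 9 genes, against 3.67% of the genes it tested, 3.03% higher and 0.642% lower in aged MFP. Log2 fold changes, aged over young, were above 0 for 7 genes, as for 47% of all genes, and below 0 for Slc2a1 and Foxo1. The median over the 9 genes was 0.34, while that of all genes tested was -0.04. That count depends on the scaling of the libraries. It was 5 of 9 when only total counts were used, and 0 of 9 when the libraries were scaled by the adipocyte markers, settings in which the median of all genes moved to -0.22 and -0.49. Akt2 and Tbc1d4 were higher in each aged library than in either young one, as were 23.3% of all genes tested, and Slc2a1 was lower in each, as were 22.8%. So 2 of 9 and 1 of 9 genes without overlap are near the shares of all genes.

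**Figure D1:**
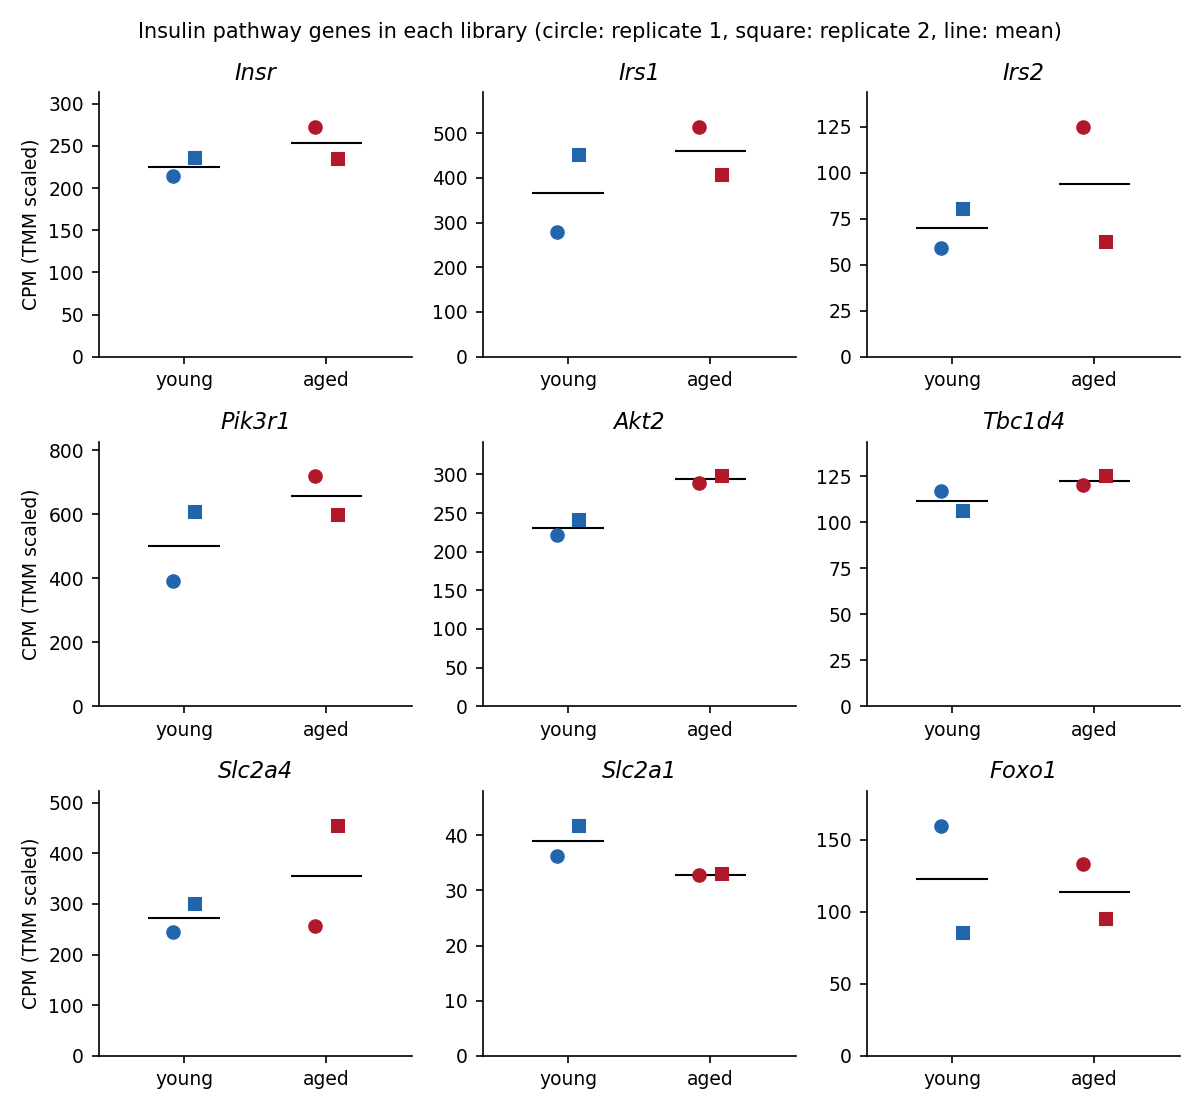
Level of each gene in CPM (vertical axis, linear from 0) in the 2 young (blue) and 2 aged (red) libraries, with a line at the mean of each age. Akt2, Tbc1d4 and Slc2a1 do not overlap between the ages, and the aged replicates stand far apart for Irs2 (125 and 62.2 CPM) and Slc2a4 (256 and 455 CPM).

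Insr (ENSMUSG00000005534; chromosome 8, 3122061 to 3279617, minus strand of GRCm38, as are all coordinates here) encodes the receptor itself. It was at 273 and 235 CPM in aged replicates 1 and 2 and at 214 and 236 CPM in young replicates 1 and 2. Aged replicate 2 lay just below young replicate 2, so the ages overlapped. Aged over young, the log2 fold change was 0.17 (standard error 0.16; edgeR, adjusted p = 0.66), with a 95% interval from -0.26 to 0.61, and it ranged from 0.05 to 0.28 with each library left out in turn (0.11 without young replicate 1). Igf1r, the related receptor of insulin-like growth factor 1, was at 101 and 87.4 CPM in aged and at 70.6 and 82.4 CPM in young replicates 1 and 2, a log2 fold change of 0.30 (edgeR, adjusted p = 0.535) that was 0.19 without young replicate 1. The ages did not overlap for Igf1r.

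The adaptors Irs1 and Irs2 carry the signal from the receptor to PI3K. Irs1 (ENSMUSG00000055980; chromosome 1, 82233101 to 82291416, minus strand) was at 515 and 407 CPM in aged replicates 1 and 2 and at 280 and 451 CPM in young replicates 1 and 2. The low value of young replicate 1 made most of the distance between the ages. The log2 fold change of Irs1 was 0.34 (standard error 0.31; edgeR, adjusted p = 0.658), with a 95% interval from -0.50 to 1.17, and it was 0.03 without young replicate 1 and 0.73 without young replicate 2. Irs2 (ENSMUSG00000038894; chromosome 8, 10984681 to 11008458, minus strand) was at 125 and 62.2 CPM in aged and at 59.1 and 80.2 CPM in young replicates 1 and 2. Its highest value came from aged replicate 1 while aged replicate 2 fell between the young libraries. Its log2 fold change of 0.43 (standard error 0.40; edgeR, adjusted p = 0.665) turned to -0.17 without aged replicate 1, and was 0.84 without aged replicate 2 and 0.22 without young replicate 1. Between the aged replicates Irs2 differed by 1.00 on the log2 scale, a gap larger than that of 96.9% of the 10621 genes with a mean of at least 10 CPM.

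The windows around the start sites of both adaptor genes are shown because they share runs of letters at and beside an E-box, the core site of several basic helix-loop-helix factors, and because FOXO1 is known to act on Irs2. They run from 250 bases before to 50 bases after the start site of RefSeq on GRCm38.p6 and are written 5′ to 3′ along the gene. The gene coordinates given above are from GENCODE M21, and the whole window of Irs2 lies upstream of them. The last letters of both windows were found in no GENCODE M21 transcript of their gene. Positions in these windows therefore hold for the RefSeq start sites only. Capitals mark CACGTG (the E-box) and AAACA or its reverse complement TGTTT (the core of the FOXO site), and in Irs1 these overlap. The window of Irs1 is chr1:82291390-82291689 on the minus strand, and that of Irs2 is chr8:11008880-11009179 on the minus strand.
Irs1: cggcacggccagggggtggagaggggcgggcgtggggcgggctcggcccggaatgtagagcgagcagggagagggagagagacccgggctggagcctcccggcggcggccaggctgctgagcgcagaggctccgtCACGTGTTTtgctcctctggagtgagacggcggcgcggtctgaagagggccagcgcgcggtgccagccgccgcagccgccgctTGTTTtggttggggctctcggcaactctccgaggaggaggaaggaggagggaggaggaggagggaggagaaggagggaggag
Irs2: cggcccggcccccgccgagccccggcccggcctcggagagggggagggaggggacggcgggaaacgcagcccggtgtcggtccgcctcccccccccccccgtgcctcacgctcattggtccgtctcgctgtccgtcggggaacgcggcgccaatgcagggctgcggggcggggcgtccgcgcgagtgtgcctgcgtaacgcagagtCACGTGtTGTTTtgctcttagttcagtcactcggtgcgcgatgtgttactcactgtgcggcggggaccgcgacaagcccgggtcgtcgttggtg

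Both strands were searched in 32851 windows of the same length. CACGTG begins 115 bases before the start site in Irs1 and 44 bases before it in Irs2, and 7.15% of all windows hold it. Those of Irs1 and Irs2 were the only 2 among 11 windows of 7 of the 9 genes. The longest runs that the pair shares, looked for after the sequences were seen, have 10 bases. GTCACGTGTT spans the E-box, and TGTTTTGCTC begins 111 bases before the start site in Irs1, where it overlaps the E-box, and 37 bases before it in Irs2. Each run stood in 25 windows, 0.0761% of all, and 6 windows held both CACGTG and TGTTTTGCTC. AAACA, which 50.5% of all windows hold, was found in windows of Irs1, Irs2, Akt2, Foxo1 and Tbc1d4. The longer FOXO site GTAAACA, in 3.65% of all windows, was not among the letters of these 11, nor were the sterol response element and the MEF2 site that were also searched. The CCAAT box, the GC box (GGGCGG) and the TATA box (TATAAA) were found in 37.4%, 35.7% and 13.6% of all windows and in 5, 7 and 2 of these 11. A match is a description of the letters and was not tested for binding. The table of windows was matched by symbol for 7 genes, without Insr and Slc2a4.

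Pik3r1 (ENSMUSG00000041417; chromosome 13, 101680563 to 101768217, minus strand) encodes the p85-alpha regulatory subunit of PI3K and had the highest counts of the 9 genes in each library. Counts grow with the length of a gene, and per length Pik3r1 came after Slc2a4, as given below. It was at 719 and 596 CPM in aged replicates 1 and 2 and at 392 and 606 CPM in young replicates 1 and 2. Young replicate 1 stood below the other 3 libraries, as it did for Irs1. Its log2 fold change was 0.40 (standard error 0.29; edgeR, adjusted p = 0.593), with a 95% interval from -0.39 to 1.19, and was 0.12 without young replicate 1 and 0.76 without young replicate 2. Relative to their means over the 4 libraries, Irs1 and Pik3r1 were both at 0.35 in aged replicate 1 and at -0.53 in young replicate 1 on the log2 scale. In the other 2 libraries Irs1 was at 0.02 and 0.16, and Pik3r1 was at 0.08 and 0.10. In young replicate 1, where these genes were lowest, the markers of mammary epithelium summed to 913.9 CPM, against 1671 to 2219 CPM in the other libraries, and the muscle and lymphocyte markers were at their lowest and highest sums. The part of these cell types in the values was not tested.

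Akt2 (ENSMUSG00000004056; chromosome 7, 27591552 to 27640826, plus strand) is the AKT kinase that metabolic tissues rely on for insulin action. It was at 289 and 298 CPM in aged replicates 1 and 2 and at 221 and 241 CPM in young replicates 1 and 2. Both aged libraries were above both young ones, and replicates of an age were close together. For Akt2 the log2 fold change was 0.35 (standard error 0.14; edgeR, adjusted p = 0.5, the smallest of the 9 genes), with a 95% interval from -0.04 to 0.74, and it ranged from 0.28 to 0.42 with each library left out in turn. With the libraries scaled by adipocyte markers it was -0.11. A pseudogene counted apart, Akt2-ps, held 0.47% as many counts as Akt2. Akt1, the more widely expressed kinase of the family, was at 160 and 140 CPM in aged and at 135 and 166 CPM in young replicates 1 and 2, a log2 fold change of 0.00 (edgeR, adjusted p = 0.991) or -0.15 without young replicate 1, with overlap between the ages.

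Tbc1d4 (ENSMUSG00000033083; chromosome 14, 101442360 to 101609191, minus strand) encodes the GTPase-activating protein that holds GLUT4 vesicles inside the cell until AKT acts on it. It was at 120 and 125 CPM in aged replicates 1 and 2 and at 117 and 106 CPM in young replicates 1 and 2. The ages did not overlap, but aged replicate 1 exceeded young replicate 1 by only a small margin. Its log2 fold change was 0.14 (standard error 0.13; edgeR, adjusted p = 0.664), with a 95% interval from -0.21 to 0.49, and 0.21 without young replicate 1. It was -0.04 with total counts only and -0.31 with scaling by adipocyte markers. Its paralogue Tbc1d1 was at 55.7 and 59.8 CPM in aged and at 91.9 and 60.4 CPM in young replicates 1 and 2, a log2 fold change of -0.40 (edgeR, adjusted p = 0.559) that was -0.07 without young replicate 1.

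Slc2a4 (ENSMUSG00000018566; chromosome 11, 69942539 to 69948188, minus strand) encodes GLUT4, the transporter that insulin moves to the surface of adipocytes and muscle fibres. It was at 256 and 455 CPM in aged replicates 1 and 2 and at 245 and 299 CPM in young replicates 1 and 2. Aged replicate 2 alone stood high, and aged replicate 1 lay between the young libraries. For Slc2a4 the log2 fold change was 0.39 (standard error 0.34; edgeR, adjusted p = 0.644), with a 95% interval from -0.53 to 1.31, and turned to -0.09 without aged replicate 2, while it was 0.73 without aged replicate 1 and 0.25 without young replicate 1. The gap between the aged replicates, 0.83 on the log2 scale, was larger than that of 95.3% of the genes with a mean of at least 10 CPM. Aged replicate 2 also had the largest sum of muscle markers, among which titin (Ttn) was at 28400 CPM there and at 21300 CPM in aged replicate 1. The part of muscle in the level of Slc2a4 was not tested.

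Slc2a1 (ENSMUSG00000028645; chromosome 4, 119108711 to 119137983, plus strand) encodes GLUT1, which takes up glucose independently of insulin. It was at 32.8 and 33 CPM in aged replicates 1 and 2 and at 36.3 and 41.8 CPM in young replicates 1 and 2. The aged replicates were nearly equal, and both were below both young libraries. For Slc2a1 the log2 fold change was -0.25 (standard error 0.16; edgeR, adjusted p = 0.564), with a 95% interval from -0.67 to 0.18. It stayed below 0 in each alternative run, from -0.70 to -0.24, and from -0.35 to -0.13 with each library left out in turn, without passing the threshold in any of them.

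Foxo1 (ENSMUSG00000044167; chromosome 3, 52268336 to 52353221, plus strand) encodes the transcription factor that insulin restrains through AKT. It was at 133 and 95 CPM in aged replicates 1 and 2 and at 160 and 85.2 CPM in young replicates 1 and 2. The young libraries held both the highest and the lowest value, so the aged ones lay between them. For Foxo1 the log2 fold change was -0.11 (standard error 0.37; edgeR, adjusted p = 0.916), with a 95% interval from -1.13 to 0.92. It turned to 0.42 without young replicate 1 (edgeR, adjusted p = 0.578) and to 0.12 without aged replicate 2, while it was -0.48 without young replicate 2. Lymphocytes express Foxo1 strongly, and young replicate 1, where Foxo1 was highest, had the largest sum of the 9 lymphocyte markers, with none of them at 0 in any library. Their highest gene, the T cell receptor subunit Cd3e, was at 124 CPM there and at 0.732 CPM in young replicate 2. The part of lymphocytes in the level of Foxo1 was not tested.

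**Figure D2:**
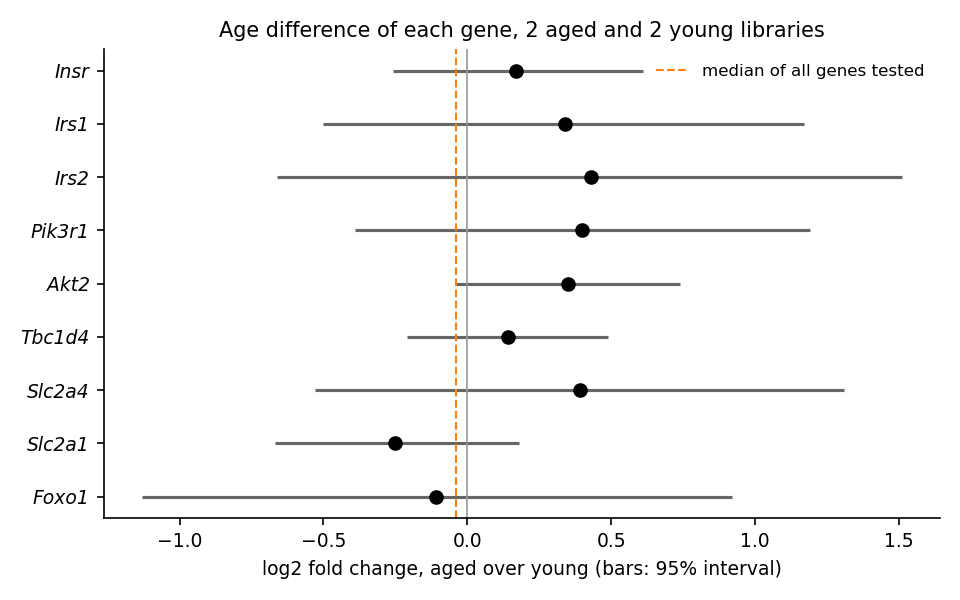
Aged over young log2 fold change of each gene (points) with its 95% interval (bars) from edgeR's quasi-likelihood fit of 2 aged and 2 young libraries, beside 0 (grey line) and the median of all genes tested (dashed, -0.04). Each of the 9 intervals includes 0, that of Akt2 by the narrowest margin (-0.04 to 0.74).

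Levels were compared between genes only per length, as CPM per kilobase of all annotated exons of a gene. Slc2a4 was highest, at 90.2 ± 27.9 CPM per kilobase (SD over the 4 libraries), followed by Pik3r1 at 57.3 ± 13.5, Irs1 at 45.2 ± 10.9 and Akt2 at 36.8 ± 5.24 CPM per kilobase. Neighbours in this order overlapped in their ranges over the libraries. A lower set was made of Insr at 17.4 ± 1.79, Tbc1d4 at 15.2 ± 1.07, Foxo1 at 13.7 ± 4.00, Irs2 at 12.9 ± 4.79 and Slc2a1 at 10.3 ± 1.20 CPM per kilobase. The lowest value of Akt2, 30.9 CPM per kilobase, was above the highest of Insr, 19.9, while neighbours within the lower set overlapped. By RNA per length GLUT4 was thus the leading transporter of the pair in every library, and Irs1 the leading adaptor. With the longest transcript as length, Akt2 was at 57.7 CPM per kilobase, above Irs1 at 45.2.

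Ratios between genes of 1 library do not depend on how libraries are scaled, and 6 pairs were compared. With 2 libraries against 2, the exact two-sided permutation test cannot give a p below 0.333, so no pair could pass the threshold. The counts of Slc2a4 were 7.79 and 13.8 times those of Slc2a1 in aged replicates 1 and 2 and 6.75 and 7.16 times those in young replicates 1 and 2. The mean log2 ratio was 3.37 ± 0.58 in aged and 2.80 ± 0.06 in young (SD, n = 2; exact permutation p = 0.333, adjusted over the 6 pairs 0.5), without overlap, and the difference of 0.58 ranged from 0.16 to 0.99 with each library left out. Akt2 had 1.80 and 2.14 times the counts of Akt1 in aged and 1.64 and 1.45 times in young replicates 1 and 2, again without overlap (exact permutation p = 0.333, adjusted 0.5). Tbc1d4 over Tbc1d1 gave 2.15 and 2.09 in aged against 1.27 and 1.75 in young libraries, and Insr over Igf1r gave 2.71 and 2.69 in aged against 3.04 and 2.87 in young libraries. Without young replicate 1 the difference in log2 ratio of Tbc1d4 over Tbc1d1 was 0.28, in place of 0.51. These 2 pairs did not overlap either (exact permutation p = 0.333 and adjusted 0.5 for each). Lack of overlap is common with 2 libraries against 2. Of all single genes tested, 23.3% were higher and 22.8% lower in aged MFP without overlap. The share over other pairs of genes was not computed. Irs1 over Irs2 and Pik3r1 over Pik3ca, the catalytic subunit, overlapped between the ages, with differences in mean log2 ratio of 0.01 and 0.26 (exact permutation p = 1 for each).

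**Figure D3:**
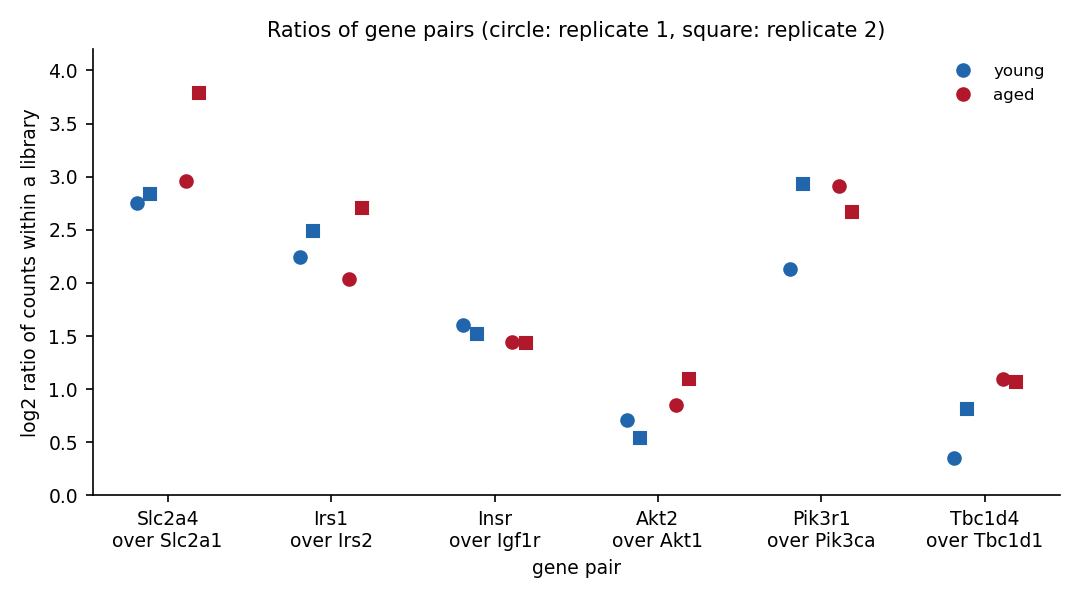
Log2 ratio of the counts of 2 genes within each library (vertical axis) for 6 pairs, young libraries in blue and aged in red. Slc2a4 over Slc2a1, Akt2 over Akt1 and Tbc1d4 over Tbc1d1 are higher in both aged libraries than in both young ones, Insr over Igf1r is lower, and the remaining pairs overlap.

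Set beside marker lists, the 9 genes did not share 1 profile over the libraries. Relative to the mean log2 CPM of the adipocyte markers, Insr differed by -0.29 between aged and young, Tbc1d4 by -0.32 and Slc2a1 by -0.71, each without overlap. Irs1, Irs2, Pik3r1, Akt2 and Slc2a4 differed by -0.13 to -0.04 on that scale, and Foxo1 by -0.52, all with overlap. With the libraries scaled by these markers the median log2 fold change of all genes was -0.49, so most genes lay below 0. The share of all genes without overlap was not computed on that scale. In the adipocyte list the median log2 fold change was 0.44, and 11 of 12 genes were higher in aged MFP without overlap, among them Cfd (adipsin), beside 23.3% of all genes. Relative to the muscle markers, whose median log2 fold change was 2.15, all 9 genes were lower in both aged libraries, by 2.00 to 2.67 on the log2 scale. The rise of these markers lowers any gene that is set against them. The part of the cell types in these differences was not tested.

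**Figure D4:**
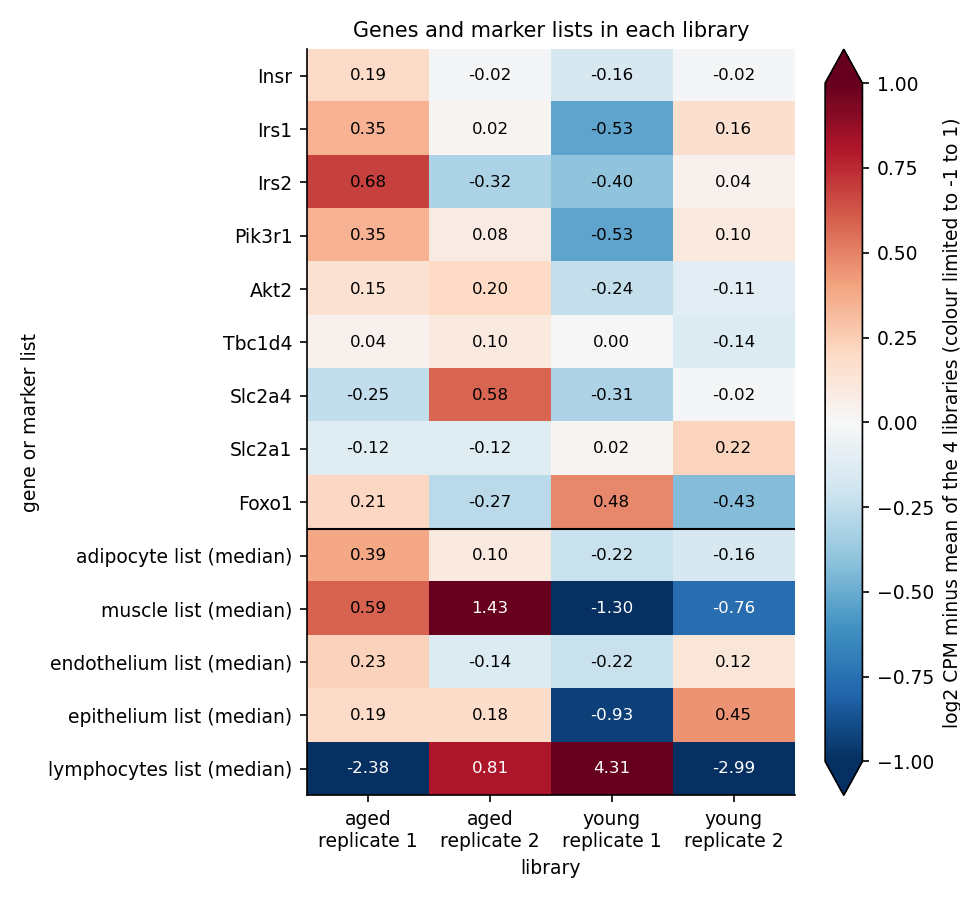
Log2 CPM of each gene minus its mean over the 4 libraries (top) and the median of the same over the genes of 5 marker lists (bottom), in each library, with colour limited to values from -1 to 1. Foxo1 is highest in young replicate 1, where the lymphocyte list reaches 4.31, Irs1 and Pik3r1 are lowest there, and Slc2a4 is highest in aged replicate 2, where the muscle list reaches 1.43.

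The wider pathway was described with a list of 107 genes, which includes the 9, of which 102 were tested. Of these, 73 had a log2 fold change above 0 and 29 below 0, with a median of 0.14, beside 47% above 0 and a median of -0.04 over all genes tested. At an adjusted p of 0.05 edgeR called 0 of them, 8 had an unadjusted p under 0.05 and were higher and 1 was lower, against 7.24% and 3.31% of all genes. Each aged library was above either young one for 35 genes and below for 10 genes, against 23.3% and 22.8% of all genes. Without young replicate 1, 51 of 103 genes tested were above and 21 below without overlap, beside 38.3% and 38.1% of all genes. DESeq2 called 3 genes, all higher (Foxo4, Rhoq and Trib3), a share near its 3.03% of all genes. With total counts only the median of the list was -0.04, and with scaling by adipocyte markers it was -0.32, beside the shifted medians of all genes given above.

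Among receptors and adaptors, the largest values belonged to low or uneven genes. Insrr, an orphan receptor of the insulin receptor family, had a log2 fold change of -0.90 with 0.325 to 3.71 CPM, and Dok1, a docking protein, one of -0.81 (edgeR, adjusted p = 0.753 and 0.523). Both were highest in young replicate 1, without which Insrr turned to 1.73 and Dok1 was at -0.23. Gab1, an adaptor that binds PI3K, had 0.53 (0.14 without young replicate 1), with 96.9 and 73.0 CPM in aged and 40.3 and 77.2 CPM in young replicates 1 and 2. Of the 8 PI3K subunits tested, the leukocyte catalytic subunit Pik3cd had the largest absolute log2 fold change, -2.07 (edgeR, adjusted p = 0.537). Young replicate 1 held 190 CPM of it and the other libraries 18.5 to 31.5 CPM, and without that library its log2 fold change was 0.29. Young replicate 1 also had the largest sum of lymphocyte markers, and the part of lymphocytes in the level of Pik3cd was not tested.

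Of the 15 kinases, Gsk3b, the kinase of glycogen synthase that AKT inhibits, had the largest value, 0.45, with 222 and 193 CPM in aged and 147 and 157 CPM in young replicates 1 and 2 (edgeR, adjusted p = 0.458). Among 20 modulators tested, most of them negative regulators of the pathway, 14 were above 0 and 6 below. Trib3, a pseudokinase that binds AKT, was at 9.40 and 18.4 CPM in aged and at 3.92 and 5.20 CPM in young replicates 1 and 2, with a log2 fold change of 1.61 (edgeR adjusted p = 0.417; DESeq2 adjusted p = 0.0184). Both aged libraries were above both young ones, and without young replicate 1 the log2 fold change of Trib3 was 1.42. Socs1, an inhibitor of cytokine signalling, had -1.44, with 12.4 CPM in young replicate 1 and 2.48 to 3.01 CPM elsewhere, and turned to 0.10 without that library.

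Of the 27 genes of GLUT4 vesicle traffic, 21 were above 0 and 6 below, with a median of 0.14. Rhoq, the small GTPase TC10, was at 199 and 168 CPM in aged and at 97.9 and 108 CPM in young replicates 1 and 2. Its log2 fold change was 0.84 (standard error 0.16, edgeR adjusted p = 0.37, DESeq2 adjusted p = 0.0113), and 0.77 without young replicate 1. Exoc7, a subunit of the exocyst that tethers vesicles, had 0.58 (edgeR, adjusted p = 0.503), without overlap, and 0.44 without young replicate 1. Of 11 glucose and related sugar transporters tested, Slc2a13, the proton myo-inositol transporter, had 1.04 (edgeR, adjusted p = 0.445), and 0.75 without young replicate 1. Slc2a6 had -2.41, with 7.54 CPM in young replicate 1 against 0.440 to 1.13 CPM elsewhere, and -0.14 without that library. Hk2 encodes the hexokinase that traps glucose in fat and muscle cells. It was at 341 and 461 CPM in aged and at 209 and 289 CPM in young replicates 1 and 2, without overlap. The log2 fold change of Hk2 was 0.69 (edgeR, adjusted p = 0.486), and 0.47 without young replicate 1.

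Among the FOXO factors, Foxo4 was at 62.8 and 65.8 CPM in aged and at 34.4 and 35.9 CPM in young replicates 1 and 2. Replicates of an age were nearly equal and the ages did not overlap, as for 23.3% of all genes tested, which were also higher in aged MFP. The part of cell types in the level of Foxo4 was not tested. Its log2 fold change was 0.87 (standard error 0.13, edgeR adjusted p = 0.36, DESeq2 adjusted p = 0.000497), and 0.84 without young replicate 1. Foxo6, at 1.98 to 3.98 CPM, had 0.74 (0.59 without young replicate 1) and no overlap. Whether Foxo4 and Foxo1 differ from each other in their change with age was not tested.

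**Figure D5:**
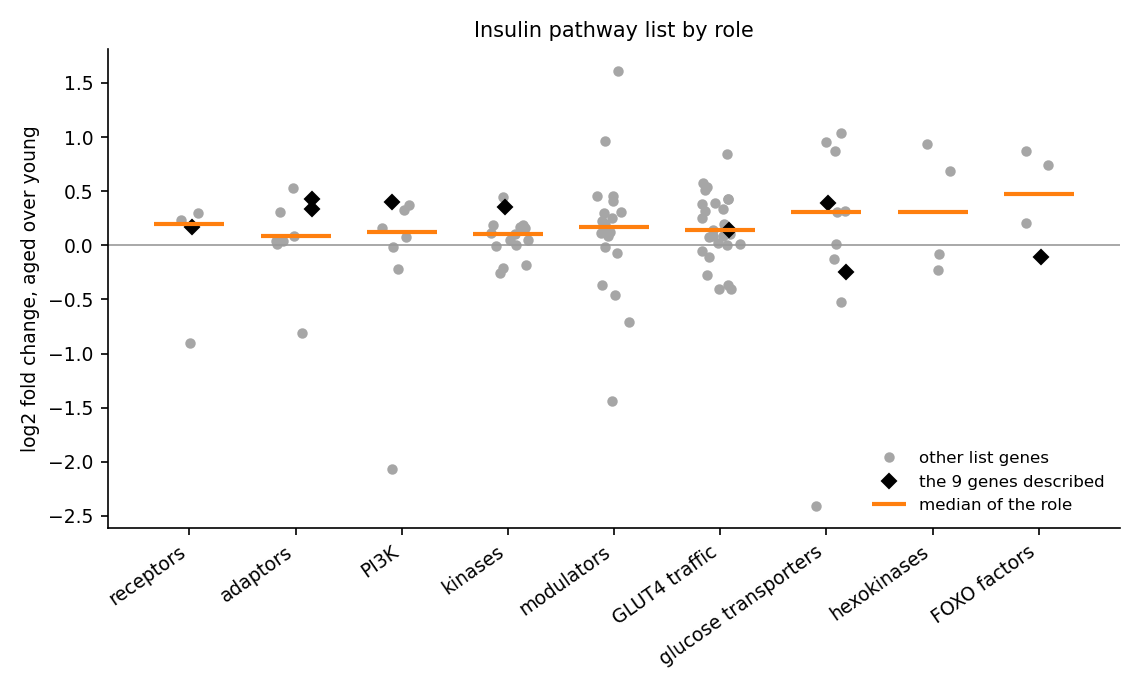
Aged over young log2 fold change (vertical axis) of the 102 genes tested of the insulin pathway list, grouped by role along the horizontal axis, with the 9 genes described as black diamonds, the other genes as grey circles and the median of each role as an orange line. The medians of the 9 roles lie between 0.09 and 0.47, and the points below -1.4 are Pik3cd, Socs1 and Slc2a6.

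Genes known to respond to FOXO factors were read as a list of 17, of which 15 were tested and which includes Insr and Irs2. The median log2 fold change was 0.43, with 10 genes above 0 and 5 below, beside a median of -0.04 and 47% above 0 over all genes. Of the list, 7 were higher in aged MFP without overlap, beside 23.3% of all genes. Without young replicate 1, a setting chosen after seeing the data, 15 genes were above 0 and 0 below, with a median of 0.27. In that setting 12139 of all 23357 genes tested were above 0. Of the list, 10 genes were then higher without overlap, beside 38.3% of all genes. Trim63, a ubiquitin ligase of muscle atrophy, was at 13.3 and 31.2 CPM in aged and at 3.81 and 4.19 CPM in young replicates 1 and 2, with a log2 fold change of 2.48 (edgeR adjusted p = 0.37, DESeq2 adjusted p = 9.32e-05). It and Fbxo32, the other muscle ubiquitin ligase of the list, at 0.75 (0.39 without young replicate 1), are chiefly genes of muscle, whose markers were higher in the aged libraries as given above. The part of muscle in these values was not tested. Genes that respond to glucose uptake were read as a list of 8, with 7 tested, 6 above 0 and a median of 0.18. Over all genes tested 47% were above 0 and the median was -0.04. Some of these 7 genes differed widely between the aged replicates, as given in the closing section. Mlxipl, which encodes the carbohydrate response factor ChREBP, was at 301 and 418 CPM in aged and at 181 and 290 CPM in young replicates 1 and 2, a log2 fold change of 0.61 (edgeR, adjusted p = 0.535), or 0.31 without young replicate 1. Txnip, which curbs glucose uptake, had 0.59 (edgeR, adjusted p = 0.535), also without overlap, and 0.30 without young replicate 1.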

How the data were processed

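RNA of whole mouse MFP was measured in 4 samples, 2 aged and 2 young, from directional libraries made after removal of ribosomal RNA. Values deposited by the authors are raw counts per gene and sample, neither normalized nor pooled. The submitters' processing notes name featureCounts, R 3.6.1 and the builds hg38 and GRCm38. The aligner, annotation and strand setting are not given in the sources used here, so reads of genes that overlap on the other strand (at Insr, Irs1, Irs2, Slc2a1 and Foxo1) may not be told apart, and Pik3r1, Tbc1d4, Slc2a1 and Foxo1 overlap a gene on their own strand. Counts were analysed with R 4.3.3, edgeR 4.0.16 and DESeq2 1.42.0. Genes were filtered by filterByExpr, scaled by TMM and fitted by glmQLFit with glmQLFTest, with age as the only term and Benjamini-Hochberg adjustment over 22485 genes at 0.05. The standard error is the log2 fold change divided by the square root of F. Log2 CPM used a prior count of 2. Gene models are GENCODE M21, which holds 55141 of 55487 identifiers, and start site windows are from RefSeq.

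The 9 genes and all lists were chosen with earlier results of these data known. Besides the 9, the genes named are the 2 with the largest absolute log2 fold change of each role, those that DESeq2 called, partners in ratios, the highest gene of a marker list, and the 3 nearest profiles to Slc2a4 and Slc2a1. One gene that this rule names is not reported here. Chosen after their values were seen were Pck1, Pdk4, Gadd45a, Acly, Tkt, Thrsp, Arrdc4, Slc2a3 and Slc2a5. The replicate numbers were not used as pairs in the main fit. Deviations of same-numbered samples from their age means correlated at -0.48 over 22485 genes, which are not independent. Libraries of an age also differed in cell content, so this value cannot show whether the samples were paired. The fits were tested on simulated data first. There the share of false calls was near the threshold for edgeR and well above it for DESeq2, so calls by DESeq2 alone are less certain. Most of the genes given a change there were missed by edgeR, so a gene without a call may still differ. The simulated libraries did not differ in cell content as the real ones do.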

Additional observations from a re-analysis of the deposited data

How the results depend on the processing

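Of the 9 genes, 0 were called under each of the 15 alternative fits and at an adjusted p of 0.1. RLE scaling, upper quartile scaling, the filters on low counts, leaving out mitochondrially encoded or muscle marker genes, DESeq2 and both blocks changed no direction. A fit with replicate block called 0 genes, the smallest adjusted p of the 9 being 0.84, and the median of the pathway list was 0.17. The crossed block, chosen after seeing the data because of the negative correlation, called 0 genes, with a smallest adjusted p of 0.52. The counts without young replicate 1 were also chosen after seeing the data. With total counts only, Insr was at -0.0019, Tbc1d4 at -0.04 and the list median at -0.04. With scaling by adipocyte markers, Insr was at -0.29, Irs1 at -0.14, Irs2 at -0.08, Pik3r1 at -0.07, Akt2 at -0.11, Tbc1d4 at -0.31, Slc2a4 at -0.03 and the list median at -0.32. In that setting 7 of the 9 genes stayed above the shifted median of all genes of -0.49, and Slc2a1 (-0.70) and Foxo1 (-0.59) lay below it. DESeq2 called 3 genes of the pathway list and 845 genes in all, against 0 by edgeR. With each library left out in turn, where a lone sample is assumed to vary like the other age, the log2 fold change of Irs1 lay between 0.03 and 0.73 and Pik3r1 between 0.12 and 0.76, both lowest without young replicate 1 and highest without young replicate 2. Irs2 lay between -0.17 (without aged replicate 1) and 0.84 in log2 fold change, Slc2a4 between -0.09 (without aged replicate 2) and 0.73, and Foxo1 between -0.48 and 0.42 (without young replicate 1, and at 0.12 without aged replicate 2). The list median ranged from 0.08 to 0.23. The difference in log2 ratio ranged from -0.32 to 0.35 for Irs1 over Irs2 (-0.32 without aged replicate 2 and -0.11 without young replicate 1) and from -0.14 to 0.66 for Pik3r1 over Pik3ca (-0.14 without young replicate 1). With the longest transcript as length, levels were 57.7 CPM per kilobase for Akt2, 25.6 for Insr, 81.3 for Pik3r1 and 18.0 for Tbc1d4. With 2 libraries an age, outlying samples were not tested.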

Other observations

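The aged libraries differed from each other in many lists. Markers of adipocytes (11 of 12 genes), endothelium (7 of 7), red cells (6 of 6) and nerve (7 of 8) were higher in aged replicate 1, and those of muscle (13 of 16), lymphocytes (9 of 9) and macrophages (7 of 7) in aged replicate 2. The insulin pathway list split into 56 genes higher in aged replicate 1 and 46 in aged replicate 2. The part of these cell types in the values that follow was not tested. Of the 7 glucose-responsive genes tested, 5 were higher in aged replicate 2 than in aged replicate 1, against 50.7% of all genes tested, with a median difference of 0.59 on the log2 scale. The 2 that went the other way were Txnip, at 1000 and 790 CPM in aged replicates 1 and 2, and Arrdc4, at 45.5 and 39.6 CPM. Acly, which makes acetyl-CoA for lipid synthesis, had 1850 CPM in the first aged library and 7850 CPM in the second, with the young replicates between them at 3880 and 5030 CPM. Tkt, the transketolase of the pentose phosphate pathway, was at 1260 and 3840 CPM in aged replicates 1 and 2, and Thrsp, a lipogenic gene, at 856 and 2160 CPM. The fructose transporter Slc2a5 was at 31.2 and 133 CPM, and Slc2a4 was higher in the same library, as given above. Of the 15 FOXO-responsive genes tested, 12 were higher in aged replicate 1, against 49.3% of all genes. Among them were Pck1, the cytosolic PEPCK of glyceroneogenesis, at 990 and 289 CPM, Pdk4, which limits pyruvate oxidation, at 87.5 and 56.0 CPM, and Irs2. The 3 that went the other way were Trim63, at 13.3 and 31.2 CPM, Fbxo32, at 74.8 and 82.6 CPM, and Gadd45a, at 20.6 and 21.6 CPM. The sources used here give no feeding state for the animals, and these differences lie between 1 library and 1 library, so none was tested.

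Profiles over the 4 libraries were compared by the Euclidean distance of log2 CPM centred on each gene's mean, among 10620 genes with a mean of at least 10 CPM. The nearest to Slc2a4 were Hsd17b7, an enzyme of cholesterol and sex steroid synthesis (distance 0.0872), Pth1r, the receptor of parathyroid hormone (0.0891), and Echdc1 (0.104). Hsd17b7 was at 13.7 and 23.3 CPM in aged and at 12.6 and 14.7 CPM in young replicates 1 and 2. The nearest to Slc2a1 were Kat2a, a histone acetyltransferase (0.0163), the amino acid transporter Slc1a5 (0.0193) and Dnttip1 (0.0205). With 4 points a profile, many genes lie close to any gene.

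GLUT3 RNA (Slc2a3), a transporter of neurons and leukocytes, was at 10.3 and 10.4 CPM in aged replicates 1 and 2, at 20.2 CPM in young replicate 1 and at 2.36 CPM in young replicate 2. Its log2 fold change of -0.13 (edgeR, adjusted p = 0.964) became 2.13 without young replicate 1. That library had the most lymphocyte marker RNA, and the part of lymphocytes in the level of Slc2a3 was not tested.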
